A study of Mus musculus with 3 samples.

Results

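The genes described here encode the proteins of the cytosolic ribosome. They were taken from the deposited gene table by name: every gene whose symbol is Rpl or Rps followed by a digit, with Rplp0, Rplp1, Rplp2 and Rpsa added, and with the Rps6k kinases and all names that end in -ps, with or without a number, left out. This gave 92 of the 26661 genes in the table. Of these, 77 are subunits of the standard mammalian ribosome: 31 proteins of the small subunit, 43 of the large subunit and the 3 proteins of the P stalk. The other 15 carry such a name without being the standard subunit, as paralogs, retrogenes or a binding protein. Fau and Rack1 also encode standard subunits and fall outside the naming rule.

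The values come from 3 RNA-seq libraries of RAW264.7 cells, a macrophage line from a virus-induced mouse tumour, labelled wild type. In the harmine plus LPS group, cells received 10 µM harmine, a plant alkaloid that inhibits the kinase DYRK1A, for 0.5 h and then lipopolysaccharide (LPS), a bacterial cell wall component, at 0.5 µg/ml for 6 h. The LPS group received the same LPS without harmine, and the control group was kept in ordinary medium. Each group holds 1 library of 1 cell line and no library had harmine alone, so no difference has a replicate check, no p-value was computed, and a harmine effect on the LPS response cannot be told apart from one that does not need LPS.

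The libraries held 56391972 deposited counts with harmine plus LPS, 52845589 with LPS and 58169999 in control. All 10 macrophage markers checked, among them Csf1r and Adgre1, were at 1 FPKM or more in every library. The labels also name lung as the tissue, and 5 of the 8 lung epithelium markers checked were in the table. At 1 FPKM or more were 3 of them with harmine plus LPS, 2 with LPS and 1 in control. Sftpb and Ager stayed under 1 FPKM in every library. The summed level of that list was 17.0 FPKM with harmine plus LPS, 12.7 FPKM with LPS and 4.49 FPKM in control, and that of 7 fibroblast and endothelial markers was 8.59 FPKM with harmine plus LPS, 8.75 FPKM with LPS and 1.43 FPKM in control. All 6 T and B cell markers were under 1 FPKM in every library. The part of such RNA in the results was not tested. Tnf, an early target of LPS, was at 1016 FPKM with harmine plus LPS, at 1436 FPKM with LPS and at 55.6 FPKM in control.

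The ribosome reads messenger RNA and joins amino acids into protein. Its small subunit holds the decoding site, its large subunit forms the peptide bond, and the flexible P stalk on the large subunit recruits the elongation factors. Ribosomal protein genes are active in every cell, and their messages are among the most abundant. Most of these messages begin with a C followed by a run of pyrimidines, the terminal oligopyrimidine (TOP) motif, through which the mTORC1 pathway and the RNA-binding protein Larp1 control their translation and their stability together.

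The start of these messages can be read from the genome. RefSeq promoter windows (build GRCm38.p6, from 250 bases before to 50 bases after the annotated start) were given for 68 of the 92 genes, 57 of them core subunits. A run of 7 or more pyrimidines lay between 20 bases before and 30 bases after the start in 37 of the 57 core promoters, or 64.9%, against 28.5% of all 27025 promoters in the table. A run of 10 or more was present in 40.4% of the core promoters and in 8.57% of all. The sequences below span 40 bases before to 20 bases from the annotated start, 5′ to 3′ on the strand of the gene, with the longest pyrimidine run near the start in capitals. They show a kinase-regulated small subunit protein (Rps6), the most highly expressed large subunit gene outside the P stalk (Rpl4), a stalk protein (Rplp2), a gene with a retrogene of the same coding sequence (Rps27), Rpl13a, and for contrast Rpl7l1 and Rps19bp1, whose names fit the rule but whose starts have no such run. These last genes do not stand for all genes outside the standard ribosome. Of the 11 such promoters, 6 (54.5%) had a run of 7 or more, and 20 of the 57 core promoters had none.
Rps6, chr4:86857348-86857407, minus strand: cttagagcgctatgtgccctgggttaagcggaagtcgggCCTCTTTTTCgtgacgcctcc
Rpl4, chr9:64173347-64173406, plus strand: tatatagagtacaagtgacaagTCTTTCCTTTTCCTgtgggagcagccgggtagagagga
Rplp2, chr7:141447611-141447670, plus strand: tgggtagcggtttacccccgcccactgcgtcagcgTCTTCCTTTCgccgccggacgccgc
Rps27, chr3:90213629-90213688, minus strand: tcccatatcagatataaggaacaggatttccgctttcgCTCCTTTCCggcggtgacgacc
Rpl13a, chr7:45128726-45128785, minus strand: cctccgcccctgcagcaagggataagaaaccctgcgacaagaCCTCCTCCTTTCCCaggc
Rpl7l1, chr17:46782637-46782696, minus strand: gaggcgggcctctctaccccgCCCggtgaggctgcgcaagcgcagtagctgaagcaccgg
Rps19bp1, chr15:80264287-80264346, minus strand: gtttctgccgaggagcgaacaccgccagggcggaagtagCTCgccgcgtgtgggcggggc
The pyrimidine run began 1 base before the annotated start in Rps6, 2 bases before it in Rps27 and 5 bases before it in Rplp2. In Rpl13a it began 2 bases after the start. The 14-base run of Rpl4 began 18 bases before the RefSeq start at base 64173387 and ended before it. The deposited gene table starts Rpl4 at base 64173375, which lies within the run. Whether this run belongs to the message therefore depends on the annotation. Runs were counted wherever they lay in the stretch, so the shares above are not shares of messages with a TOP start. Other motifs were counted in the whole window of 300 bases on both strands. CCGGAAG, the core of sites bound by ETS factors such as GABP, occurred in 40.4% of the core promoters, in 9.20% of all promoters and in 21.2% of the 8317 promoters of genes compared here. AAGATGG, a YY1 motif, occurred in 14.0% of the core promoters, 6.47% of all and 8.01% of those of genes compared. The TATA box TATAAA occurred in 8.77% of the core promoters, 14.2% of all and 6.90% of those of genes compared, so the core share lay below that of all promoters and above that of genes compared. These matches describe the letters in the windows and are not binding sites that were measured.

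Ribosomal protein genes took a smaller share of the RNA in both LPS-treated libraries than in control. The 77 core genes held 4.46% of the deposited counts with harmine plus LPS, 4.44% with LPS and 5.40% in control. The 2 treated libraries thus lay close together and control stood above both. Control was also highest for the small subunit (1.87% with harmine plus LPS, 1.87% with LPS, 2.29% in control) and for the large subunit (2.37% with harmine plus LPS, 2.31% with LPS, 2.82% in control). The P stalk genes held 0.223% with harmine plus LPS, 0.261% with LPS and 0.285% in control, so that here harmine plus LPS lay lowest. On the FPKM scale (fragments per kilobase of exon, scaled to the size of the library) all 92 genes held 7.52% of the summed values with harmine plus LPS, 7.49% with LPS and 8.96% in control. In libraries of bulk RNA, a little less RNA of these genes in every cell and much less in only some cells cannot be told apart. A share also depends on every other gene.

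**Figure D1:**
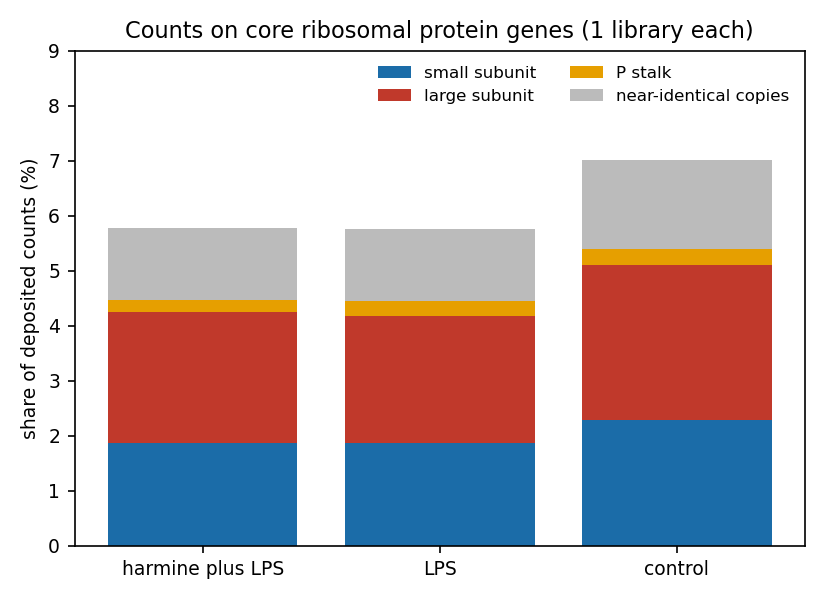
Stacked bars give the share of all deposited counts (in percent, axis from 0) on the small subunit, large subunit and P stalk genes and on their near-identical copies in the harmine plus LPS, LPS and control libraries, 1 library each. The control bar reaches 7.02%, above the 5.78% and 5.76% of the harmine plus LPS and LPS bars.

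The core genes were highly expressed throughout. Their median was 224 FPKM with harmine plus LPS, 221 FPKM with LPS and 277 FPKM in control. Among the top 1% of all genes were 52 of the 77 core genes with harmine plus LPS, 50 with LPS and 55 in control. Rplp1, the stalk protein that pairs with Rplp2, was the highest at 1415 FPKM with harmine plus LPS, 1600.2 FPKM with LPS and 1778 FPKM in control. Rps3a1, a small subunit protein near the messenger RNA exit, followed with 1205 FPKM with harmine plus LPS, 1121 with LPS and 1408 in control, and Rpl4, a large subunit protein that lines the exit tunnel, with 1237 FPKM with harmine plus LPS, 1121 with LPS and 1374 in control. Rpl8, at the heart of the large subunit, had 848 FPKM with harmine plus LPS, 843 with LPS and 1038 in control. Control was the highest library for each of these 4 genes, whereas the order of the 2 treated libraries differed among them.

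At the low end, Rpl21 had 2.74 FPKM with harmine plus LPS, 3.19 FPKM with LPS and 2.85 FPKM in control. Rpl29 had 13.6 FPKM with harmine plus LPS, 11.7 with LPS and 11.5 in control, Rpl35a 13.4 FPKM with harmine plus LPS, 16.2 with LPS and 16.4 in control and Rpl30 26.2 FPKM with harmine plus LPS, 23.9 with LPS and 17.1 in control. All 4 have near-identical copies that hold the larger part of the family's counts, described further on. The deposited FPKM divides by the length of all annotated exons of a gene, retained introns included. Scaled by coding length instead, Rpl41, whose protein is among the shortest known, led the core genes in control, and Rpl21 was again the lowest. This scaling still counts fragments on untranslated exons, and Rpl41 has 78 coding bases against 1168 exon bases, which raises its value. Levels compared between genes on the FPKM scale therefore depend on the annotation.

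**Figure D2:**
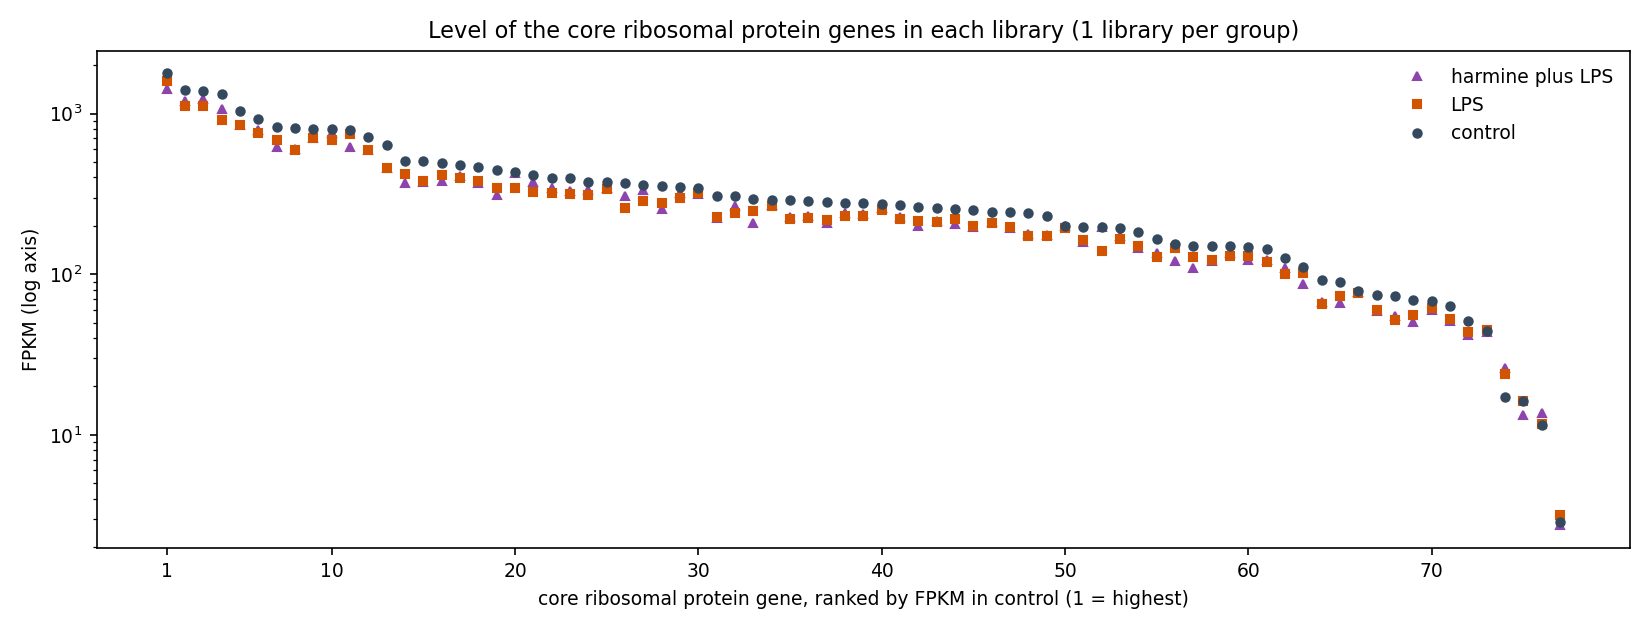
Points give the FPKM (log axis) of each of the 77 core genes in the harmine plus LPS (triangles), LPS (squares) and control (circles) libraries, genes sorted by control, 1 library each. As deposited, control is the highest library for 72 genes, and the 4 genes at the right end fall to between 2.85 and 17.1 FPKM in control.

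LPS compared with control addresses how these messages differed after activation. Differences are log2(FPKM + 1) in the LPS library minus that in control, over the 12197 genes with at least 1 FPKM in any library. This minimum was met by 89 of the 92 genes, all 77 core genes among them. The core genes were lower with LPS by a small and similar amount. Their median difference was -0.27, with the middle 50% of genes between -0.33 and -0.21, against a median of -0.13 over all genes compared. Below 0 were 73 of the 77 core genes, and 84 of the 89 genes, against 60.1% of all genes compared. The difference seldom reached 1.5-fold: none of the 89 was 1.5-fold or more higher, against 11.7% of all genes compared, and only Rps27rt was 1.5-fold or more lower, against 19.3%. At 2-fold, again Rps27rt alone was lower, against 7.21% of all genes. For 63 of the 77 core genes the difference lay within 0.2 of the core median, whereas 31.3% of all genes lay that close to their own median. For 70 core genes the 95% interval of the FPKM ratio, which covers counting error only, lay wholly below 1, for 1 above 1 and for 6 across it. On scaling by the median of ratios, which brings the median of all genes compared to -0.006, the median of the 89 genes was -0.12 and 71 of them were below 0. Relative to the median of all genes they were 0.14 lower as deposited and 0.12 lower on that scaling, which moves both medians nearly alike and so is no separate check.

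In the small subunit, Rps15, a protein of the small subunit head, had 1059 FPKM with harmine plus LPS, 905 FPKM with LPS and 1316 FPKM in control. Its LPS over control difference of -0.54 was the lowest of the core genes. The FPKM ratio was 0.688 (95% counting interval 0.670 to 0.707). Rps19, which is mutated in Diamond-Blackfan anaemia in humans, had 54.9 FPKM with harmine plus LPS, 52.2 with LPS and 73.5 in control and a difference of -0.49. Rps3, which also serves in DNA repair, had 175.9 FPKM with harmine plus LPS, 173.4 with LPS and 228.7 in control and a difference of -0.40. For these 3 genes control lay above both treated libraries, and the gap between the treated libraries was largest for Rps15. All 31 small subunit genes were below 0 as deposited, and 25 on scaling by the median of ratios, where 50.4% of all genes compared were below 0. The smallest differences in this group were those of Rps2 (77.5 FPKM with harmine plus LPS, 76.1 with LPS, 78.9 in control) and Rps27 (198.7 FPKM with harmine plus LPS, 192.5 with LPS and 199.5 in control), at -0.05 each, and for both the counting interval of the ratio reached across 1. Rps6, a target of the S6 kinases, had 754 FPKM with harmine plus LPS, 688 with LPS and 797 in control and a difference of -0.21, and Rpsa, which doubles as the laminin receptor precursor, had 620.5 FPKM with harmine plus LPS, 680 with LPS and 818 in control and a difference of -0.27.

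In the large subunit, Rpl28 had 305 FPKM with harmine plus LPS, 257 FPKM with LPS and 369 FPKM in control, a difference of -0.52 for LPS over control. Its gene overlaps Ube2s on the opposite strand (14173 counts with harmine plus LPS, 15038 with LPS and 12074 in control). Libraries were made with a strand-marking protocol, but no source used here states whether counting used the strand. Rpl5 and Rpl11, which together with 5S ribosomal RNA can bind and block Mdm2 when ribosome assembly fails, were both lower with LPS: Rpl5 had 196.4 FPKM with harmine plus LPS, 198.6 with LPS and 249.6 in control and a difference of -0.33, and Rpl11 had 177.7 FPKM with harmine plus LPS, 172.2 with LPS and 240.6 in control and a difference of -0.48. Rpl22 had 67.3 FPKM with harmine plus LPS, 65.2 with LPS and 91.5 in control and a difference of -0.48. Rpl13a, which in human monocytes leaves the ribosome after interferon-gamma to silence inflammatory messages, had 265 FPKM with harmine plus LPS, 239.7 with LPS and 307 in control and a difference of -0.35. Of the 43 large subunit genes, 39 were below 0 as deposited, and 35 on scaling by the median of ratios. The 4 above 0 as deposited were Rpl30 (0.46), Rpl21 (0.12), Rpl26 (0.03) and Rpl29 (0.02). Rpl30 was at 26.2 FPKM with harmine plus LPS, 23.9 FPKM with LPS and 17.1 FPKM in control, a ratio of 1.40 for LPS over control (95% counting interval 1.28 to 1.53), and was the only core gene whose interval lay above 1.

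**Figure D3:**
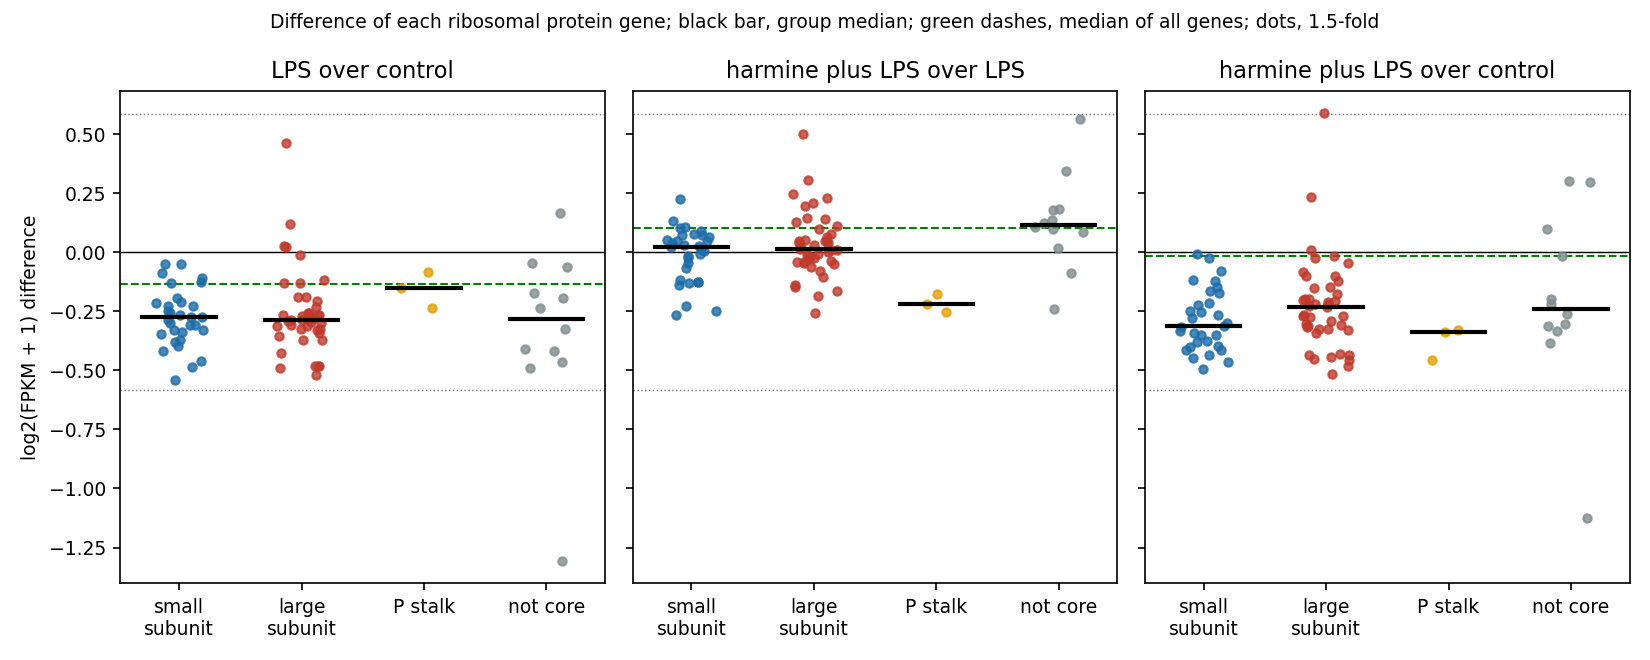
Each point is 1 gene's difference in log2(FPKM + 1) (vertical axis) in LPS over control, harmine plus LPS over LPS, and harmine plus LPS over control, by role; black bars are group medians, the green dashed line the median of all genes compared, and dotted lines 1.5-fold. The small and large subunit medians are -0.27 and -0.29 for LPS over control and 0.02 and 0.01 for harmine plus LPS over LPS (these 2 become -0.11 and -0.12 on scaling by the median of ratios), and the 3 P stalk genes lie between -0.25 and -0.18 for harmine plus LPS over LPS.

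Harmine plus LPS compared with LPS addresses the effect of harmine in LPS-treated cells. Here the core genes showed little difference on balance. Their median difference was 0.01, with the middle 50% of genes between -0.06 and 0.07, against 0.10 over all genes compared. Below 0 were 34 of the 77 core genes and 36 of the 89 genes, against 34.4% of all genes compared. None of the 89 was 1.5-fold or more higher, against 5.3% of all genes, and none 1.5-fold or more lower, against 3.35%. The sign of this median depends on the scaling between libraries. It was 0.02 over the 89 genes as deposited, -0.11 with 74 genes below 0 on scaling by the median of ratios, and -0.048 with 60 below 0 on scaling by the upper quartile. Of all genes compared, 51.5% were below 0 by the median of ratios and 43.1% by the upper quartile. Relative to the median of all genes the 89 genes were 0.08, 0.10 and 0.09 lower on these 3 scales. A scaling moves both medians nearly alike, so these are not separate checks. The counting interval of the ratio lay wholly below 1 for 18 core genes, above 1 for 24 and across 1 for 35.

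The 3 P stalk genes stood together in this comparison. Rplp0, the stalk base, had 622 FPKM with harmine plus LPS, 742 FPKM with LPS and 787 FPKM in control. Rplp1, as given above, and Rplp2 (109.5 FPKM with harmine plus LPS, 127.8 with LPS and 150.5 in control) followed the same order, lowest with harmine plus LPS and highest in control. Their differences for harmine plus LPS over LPS were -0.25, -0.18 and -0.22, with an FPKM ratio of 0.838 (95% counting interval 0.821 to 0.856) for Rplp0, 0.884 (0.862 to 0.907) for Rplp1 and 0.857 (0.819 to 0.897) for Rplp2. All 3 intervals lay below 1. Scaling by the median of ratios or by the upper quartile lowers this comparison for nearly every gene. That the 3 genes stayed below 0 on these scalings is thus no further check. Below 0 were also 67 of the 77 core genes by the median of ratios and 57 by the upper quartile. For LPS over control all 3 were below 0 as deposited, and 2 of them by the median of ratios. Others low for harmine plus LPS over LPS were Rps12 (120.9 FPKM with harmine plus LPS, 145.5 with LPS and 154.7 in control, difference -0.26) and Rps27a, which is made as a fusion with ubiquitin (207.5 FPKM with harmine plus LPS, 246.6 with LPS and 293 in control, difference -0.25). At the high end, Rpl17 had 196.7 FPKM with harmine plus LPS, 139.0 FPKM with LPS and 195.6 FPKM in control, a difference of 0.50 and the highest of the core genes. Rpl7a had 426 FPKM with harmine plus LPS, 344 with LPS and 432 in control and a difference of 0.31, Rpl28 a difference of 0.24, and Rpl35, whose gene overlaps Arpc5l on the opposite strand, had 335 FPKM with harmine plus LPS, 286 with LPS and 358 in control and a difference of 0.23. In these 4 genes harmine plus LPS lay above LPS and near or below control.

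Across the core genes 2 orders of the libraries covered nearly all cases. In 40 genes control was highest and LPS lowest, and in 32 genes control was highest and harmine plus LPS lowest. The balance between the 2 orders depends on the scaling: the numbers were 6 and 54 by the median of ratios and 17 and 52 by the upper quartile, while control was highest for 72, 60 and 69 of the 77 core genes on the 3 scales. In the harmine plus LPS over control comparison the core median was -0.27, against -0.02 for all genes compared, and 74 of the 77 core genes were below 0, against 51.2% of all genes. In this comparison 1 of the 89 genes, Rpl30 (0.59), was 1.5-fold or more higher, against 12.3% of all genes, and 1, Rps27rt (-1.12), 1.5-fold or more lower, against 13.5%. Low in this comparison among the core genes were Rpl14 (310.6 FPKM with harmine plus LPS, 344 with LPS and 445 in control, -0.52), Rps27a (-0.50) and Rpl32 (457.7 FPKM with harmine plus LPS, 457.7 with LPS and 639.5 in control, -0.48). This comparison shares the harmine plus LPS library and the control library with those above, so its values are not independent of them.

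Most of these genes exist in several near-identical forms in the mouse genome. Alignment of each coding sequence to the annotated transcripts (at least 95% identity over at least 90% of its length) found a copy in the table for 74 of the 77 core genes, 525 copies in all and up to 53 for Rpl21. In control, 10 core genes held less than 50% of the counts of their own family and 19 held 95% or more. Rpl21 held 1.16%, Rpl29 3.33%, Rps2 6.68%, Rpl26 10.0%, Rps18 15.2%, Rpl30 16.4% and Rpl35a 20.3%. The 4 core genes above 0 in LPS over control, Rpl30, Rpl21, Rpl26 and Rpl29, are among these. The sequences that read assignment has to tell apart are shown for 3 genes, from the coding sequences of GENCODE M21 (GRCm38), 60 bases each, with bases that differ between gene and copy in capitals and positions counted from 1 at the A of the start codon.
Rps27, chromosome 3, bases 1 to 60: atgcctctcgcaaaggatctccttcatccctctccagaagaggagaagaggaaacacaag
Rps27rt, chromosome 9, bases 1 to 60: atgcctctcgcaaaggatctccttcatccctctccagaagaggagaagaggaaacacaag
Rpl30, chromosome 15, bases 66 to 125: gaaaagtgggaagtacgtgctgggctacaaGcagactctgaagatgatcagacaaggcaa
Gm12191, chromosome 11, bases 66 to 125: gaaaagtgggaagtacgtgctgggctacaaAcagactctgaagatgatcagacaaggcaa
Rpl26, chromosome 11, bases 147 to 206: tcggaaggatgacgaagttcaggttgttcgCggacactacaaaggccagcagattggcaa
Gm15772, chromosome 5, bases 147 to 206: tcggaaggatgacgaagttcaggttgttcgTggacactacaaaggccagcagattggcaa
Over its 255 coding bases Rps27 did not differ from Rps27rt at any position. Rpl30 differed from Gm12191 by G96A alone over 348 coding bases, and Rpl26 from Gm15772 by C177T and T288C over 438.

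Summing the counts of each core gene with those of its copies narrowed the spread between genes. This summing was chosen after the values had been seen. Below 0 were then 77 of the 77 core genes for LPS over control as deposited, against 60.1% of all genes compared. They lay between -0.54 and -0.07, with a median of -0.29. The SD across genes was 0.103, against 0.158 for the genes alone on the same plain log2 ratio scale. These summed values were not rescaled. For the genes alone, the median of ratios moved the core median from -0.27 to -0.12, so summed values near 0 need not stay below it. The summed values for harmine plus LPS over LPS lay between -0.37 and 0.30 around a median of 0.01, and the SD across genes was 0.119, against 0.138. Those for harmine plus LPS over control lay between -0.52 and -0.07, all 77 below 0, against 51.2% of all genes compared. Their SD was 0.118, against 0.176. The Rpl30 family was at -0.20 for LPS over control, whereas Rpl30 alone was at 0.48 on this scale. Rpl30 itself had 5067 counts with harmine plus LPS, 4346 with LPS and 3422 in control. Its copies had 11542 counts with harmine plus LPS, 12115 with LPS and 17414 in control. The Rpl17 family was at 0.06 for harmine plus LPS over LPS, against 0.50 for Rpl17 alone, and the Rpl7a family at 0.09, against 0.31. Rps15, Rpl28 and Rpl35, with 99.5%, 88.0% and 88.4% of their family's counts in control, were at 0.23, 0.27 and 0.24 for harmine plus LPS over LPS when summed, and the P stalk families were at -0.21 (Rplp0), -0.17 (Rplp1) and -0.17 (Rplp2). The 19 core genes with 95% or more of their family's counts were all below 0 for LPS over control as deposited, with a median of -0.31 and a range of -0.54 to -0.11.

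**Figure D4:**
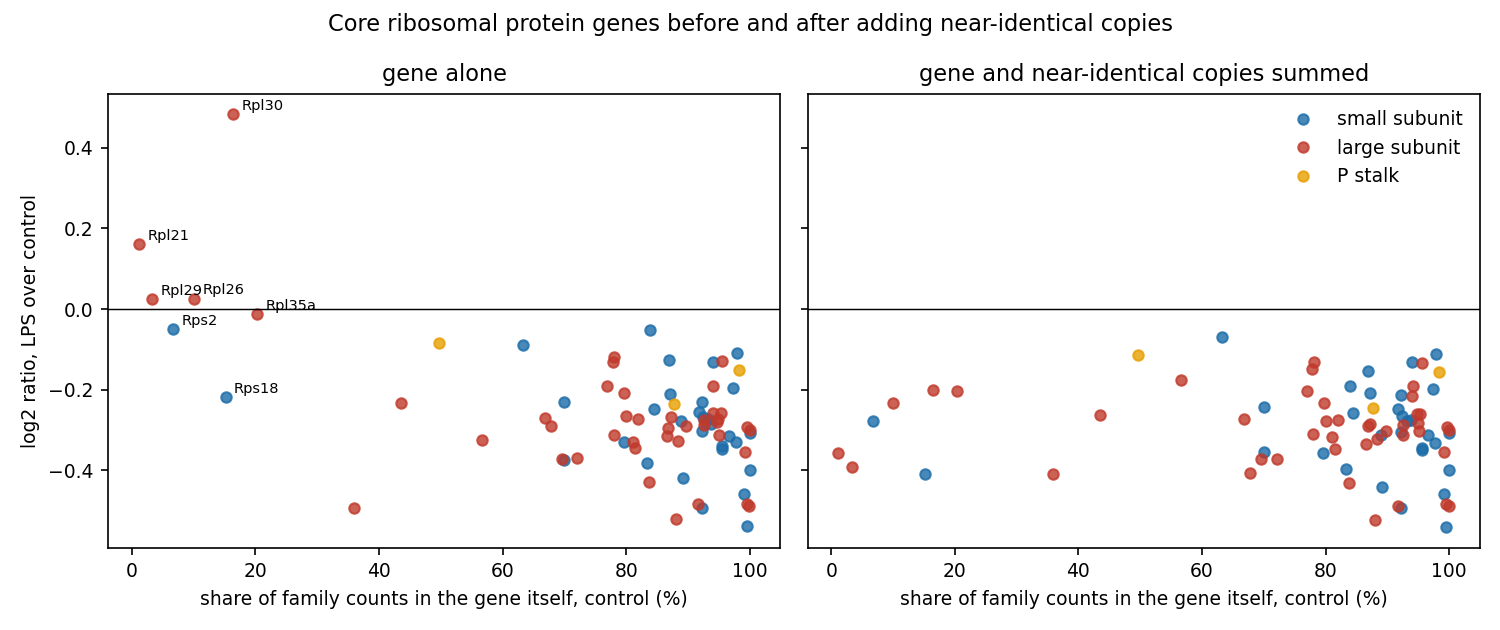
Each point is 1 of the 77 core genes, with its share of its family's counts in control (percent, horizontal axis) against the log2 ratio of LPS over control (vertical axis), for the gene alone (left) and with its near-identical copies summed (right), 1 library per group. The points above 0 on the left all lie at shares of 16.4% or less, and on the right every point is below 0, both on the deposited scaling.

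Among the 15 genes outside the standard ribosome, Rps27rt, a retrogene of Rps27 (chr9:114982366-114982739, mm10), was the only one of the 12 compared that passed 1.5-fold in any comparison. It had 47.6 FPKM with harmine plus LPS, 41.8 FPKM with LPS and 104.8 FPKM in control, and its ratio for LPS over control was 0.399 (95% counting interval 0.342 to 0.463). Summed with Rps27, whose coding sequence is the same, it gave a log2 ratio of -0.19 for LPS over control, and the reads of the 2 genes cannot be told apart within the coding sequence. Rps27l, a paralog induced by p53, had 104.4 FPKM with harmine plus LPS, 97.4 with LPS and 129.9 in control and a difference of -0.41 for LPS over control. Rpl7l1, whose yeast relative acts in assembly of the large subunit, was the only one of the 12 such genes compared that was above 0 for LPS over control, with 62.6 FPKM with harmine plus LPS, 56.9 with LPS and 50.5 in control and a difference of 0.17. Control was its lowest library, whereas control was the highest for 72 core genes. Rps19bp1, which encodes a protein that binds Rps19 and the deacetylase SIRT1, had 25.9 FPKM with harmine plus LPS, 20.2 with LPS and 20.9 in control, a difference of -0.05 for LPS over control and 0.34 for harmine plus LPS over LPS. Rpl22l1, the paralog of Rpl22, had 12.1 FPKM with harmine plus LPS, 14.5 with LPS and 15.2 in control and a difference of -0.24 for harmine plus LPS over LPS.

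Rpl36al, a paralog of Rpl36a, had 121.2 FPKM with harmine plus LPS, 111.0 with LPS and 139.3 in control, with control highest. Rps3a2 (252 FPKM with harmine plus LPS, 235 with LPS and 330 in control), Rps3a3 (37.8 FPKM with harmine plus LPS, 37.4 with LPS and 44.3 in control), Rpl37rt (30.3 FPKM with harmine plus LPS, 28.5 with LPS and 38.4 in control) and Rpl6l (73.5 FPKM with harmine plus LPS, 78.3 with LPS and 88.4 in control) also had control highest. Rpl32l (7.56 FPKM with harmine plus LPS, 4.79 with LPS and 7.00 in control) and Rps23rg1 (2.29 FPKM with harmine plus LPS, 1.91 with LPS and 2.33 in control) were low, and Rpl32l held 0.451% of the counts of its family with Rpl32 in control. Rpl3l, a form of Rpl3 made in striated muscle, Rpl39l, a form of Rpl39 made in the testis, and Rps4l stayed under 1 FPKM in every library and were not compared. Fau and Rack1, outside the naming rule, were each highest in control: Fau had 222.8 FPKM with harmine plus LPS, 233.3 with LPS and 255.9 in control, and Rack1 had 218.9 FPKM with harmine plus LPS, 238.3 with LPS and 255.4 in control.

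Core promoters with and without a pyrimidine run of 7 or more near the annotated start differed little in these comparisons. A run in this split need not lie within the message. For LPS over control, the 37 genes with a run had a median difference of -0.28 and the 20 without a run -0.27. The medians were 0.03 and 0.02 for harmine plus LPS over LPS, and -0.28 and -0.29 for harmine plus LPS over control. Other transcripts known to start with a TOP motif had a median of -0.10 for LPS over control as deposited and 0.05 on scaling by the median of ratios (21 genes). Vim, an intermediate filament gene of that list, had 134.4 FPKM with harmine plus LPS, 77.7 with LPS and 149.7 in control, and Gas5, a noncoding host of small nucleolar RNAs, had 112.1 FPKM with harmine plus LPS, 111.8 with LPS and 67.5 in control. These 2 genes lay at opposite ends of the list for LPS over control.

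Other parts of the translation machinery were counted beside the ribosomal proteins. The mitochondrial ribosomal proteins, which translate the messages of the mitochondrial genome, had a median of -0.30 for LPS over control, close to that of the cytosolic core, but a wider spread, with the middle of the list between -0.55 and -0.06. By the median of ratios the medians were -0.16 for the mitochondrial list, with 52 of 78 genes below 0 against 65 as deposited, and -0.12 for the cytosolic core. Of these 78 genes, 19 were 1.5-fold or more lower with LPS, a share above the 19.3% of all genes. Only 2 were 1.5-fold or more higher, a share below the 11.7% of all genes. The 2 higher genes, Mrpl53 (52.8 FPKM with harmine plus LPS, 42.9 with LPS and 18.5 in control) and Mrpl52 (25.8 FPKM with harmine plus LPS, 40.9 with LPS and 16.5 in control), were named after their values were seen. The median of the 78 genes for harmine plus LPS over LPS was 0.22, against 0.01 for the cytosolic core and 0.10 for all genes. On scaling by the median of ratios these medians were 0.10, -0.12 and -0.01. The mitochondrial list thus lay above the cytosolic one. A scaling of whole libraries moves both lists by nearly the same amount, so it cannot check that order.

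Most genes for factors that build the ribosome were above 0 for LPS over control, by differences that mostly stayed under 1.5-fold. The 37 ribosome biogenesis genes had a median of 0.30 as deposited and 0.45 by the median of ratios, against -0.13 and -0.006 over all genes compared. On both scales 31 of the 37 were above 0, against 39.8% of all genes as deposited and 49.6% by the median of ratios. Utp4, a component of the small subunit processome, had 51.3 FPKM with harmine plus LPS, 49.9 FPKM with LPS and 30.9 FPKM in control, and Nop14, of the same complex, had 58.3 FPKM with harmine plus LPS, 51.6 with LPS and 33.0 in control. Both treated libraries lay above control for these genes, whereas control was highest for most ribosomal protein genes. With Rrp9 and Sdad1, they made up the 4 biogenesis genes that were 1.5-fold or more higher, against 11.7% of all genes, a share near that background, with none lower. The 34 initiation factors had a median of 0.13 as deposited and 0.28 by the median of ratios, with Eif1, which guards the choice of start codon, at 216 FPKM with harmine plus LPS, 243 with LPS and 133 in control and Eif3f, a subunit of the eIF3 complex, at 67.3 FPKM with harmine plus LPS, 56.7 with LPS and 94.9 in control. The 11 elongation and termination factors had a median of 0.09 as deposited and 0.24 by the median of ratios. Eef1a1, which brings aminoacyl-tRNA to the ribosome and has a TOP start, had 3941 FPKM with harmine plus LPS, 4297 with LPS and 4045 in control.

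**Figure D5:**
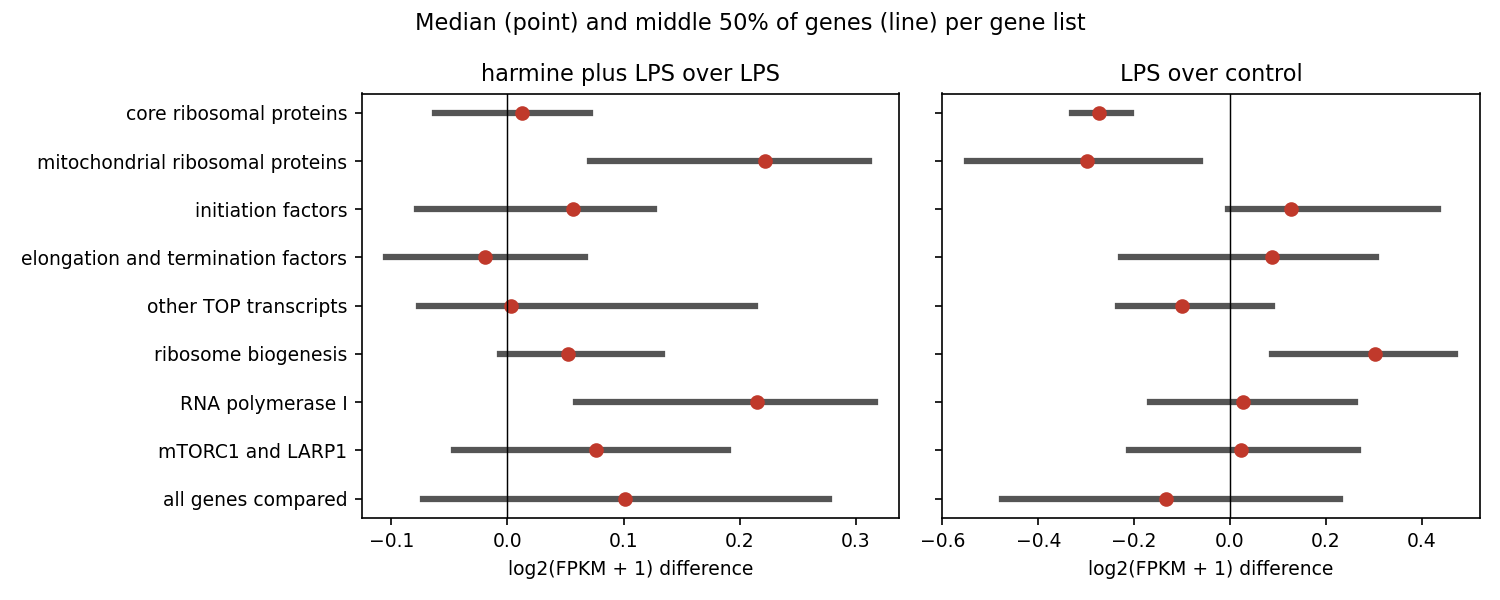
Points give the median and lines the middle 50% of genes of each list in log2(FPKM + 1) difference, as deposited, for harmine plus LPS over LPS (left) and LPS over control (right), with all genes compared as the last line. Cytosolic core and mitochondrial ribosomal proteins lie at -0.27 and -0.30 for LPS over control, ribosome biogenesis genes at 0.30, and the core list has the narrowest line.

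Among the upstream genes listed for ribosomal protein output, Larp1, the TOP-binding protein, had 39.2 FPKM with harmine plus LPS, 41.9 FPKM with LPS and 33.7 FPKM in control, and the kinase gene Mtor had 7.66 FPKM with harmine plus LPS, 8.41 with LPS and 8.95 in control. Both differed by less than 1.5-fold in every comparison. Eif4ebp1, the mTORC1 target that holds back cap-dependent initiation, had 27.8 FPKM with harmine plus LPS, 16.6 with LPS and 26.0 in control, a difference of -0.61 for LPS over control and 0.71 for harmine plus LPS over LPS. Its relative Eif4ebp2 had 11.9 FPKM with harmine plus LPS, 9.70 with LPS and 27.7 in control and a difference of -1.42 for LPS over control. The Myc family, which drives ribosomal protein and biogenesis genes in growing cells, was split: Myc had 52.4 FPKM with harmine plus LPS, 27.0 with LPS and 0.905 in control, and Mycn had 167.0 FPKM with harmine plus LPS, 93.4 with LPS and 244.7 in control. Myc was thus lowest in control, Mycn was lowest with LPS, and both were higher with harmine plus LPS than with LPS.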

How the data were processed

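RNA was poly(A)-selected and sequenced as read pairs, per the labels' protocols. The authors deposited 1 gene table with an FPKM value and an estimated count per gene and library. Tools listed in the submitters' processing notes are StringTie 2.1.6, HISAT2 2.2.1, cutadapt 1.9, edgeR and DESeq2, with build mm10, and no source used here says which step each performed. The deposited FPKM was the main measure. It equalled the deposited count divided by the length of all annotated exons (GENCODE M21) and 1 factor per library, within 1% for 97.4% of genes with more than 200 counts with harmine plus LPS, 97.3% with LPS and 97.9% in control. More genes had a deposited count of exactly 4 than of 3 in every library (994 against 619 with harmine plus LPS, 1096 against 573 with LPS, 1072 against 566 in control), so 4 counts were taken as 1 read pair in the 95% exact binomial intervals. These intervals cover counting error only.

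Differences are log2(FPKM + 1), with a pseudocount of 1 FPKM, which understates the differences of low genes. Genes with at least 1 FPKM in any library were compared. With 1 library per group no test was run, and a threshold of 1.5-fold or 2-fold is one of size. Copies were found with blastn 2.17.0; calculations used Python 3.11.15, pandas 2.3.3, numpy 2.4.6 and scipy 1.17.1. The calculation was tested on simulated data. Genes named are the 5 highest and 5 lowest per comparison at 10 FPKM or more, the 10 highest and the 5 lowest core genes in control, all genes outside the standard ribosome and a few fixed names; some genes this rule takes are not reported here. The genes, lists and naming rule were chosen with earlier results of these data known; Rpl37rt, Rpl6l and Rpl32l were moved out of the core once the table was read.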

Additional observations from a re-analysis of the deposited data

How the results depend on the processing

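The median of the 89 genes for LPS over control was -0.27 as deposited, -0.12 on scaling by the median of ratios and -0.21 on scaling by the upper quartile. For harmine plus LPS over LPS it was 0.02, and on these scalings -0.11 and -0.048, so its sign depends on the scaling. The median for harmine plus LPS over control was -0.27 as deposited and lay between -0.28 and -0.23 under every alternative run. The share of higher genes among all genes past 1.5-fold depended on the scaling too: for LPS over control it was 37.7% as deposited, 50.6% by the median of ratios and 43.3% by the upper quartile, and for harmine plus LPS over LPS 61.3%, 38.3% and 49.4%. Counts past 1.5-fold moved by 1 or a few genes. For LPS over control, 1 gene was higher by the median of ratios (Rpl30) and 1 on rescaling each library to the same FPKM total (TPM; Rpl39l), and 0 were lower among core genes only. For harmine plus LPS over LPS, 1 was higher with a pseudocount of 0.1 FPKM (Rpl32l), 1 as TPM (Rpl32l) and 1 with near-identical copies summed (Rps23rg1), the last chosen after seeing the data. For harmine plus LPS over control, 3 were higher as TPM (Rpl30, Rpl39l and Rps4l), 0 with a pseudocount of 5 FPKM, 0 without genes that have a copy named -ps and 0 with copies summed, and 0 were lower among core genes only or with copies summed. Rpl39l and Rps4l rest on few deposited counts. Rpl39l had 19 with harmine plus LPS, 18 with LPS and 7 in control, and its counting interval for LPS over control was 0.33 to 25.1. Rps4l had 28 counts with harmine plus LPS, 19 with LPS and 8 in control. The share of all genes' values was 4.56% with harmine plus LPS, 4.53% with LPS and 5.51% in control from the deposited counts, 3.07% with harmine plus LPS, 3.06% with LPS and 3.64% in control without genes that have a copy named -ps, and 7.28% with harmine plus LPS, 7.26% with LPS and 8.67% in control for core genes only; control was highest each time. The half-width of the counting interval had a median of 0.05 log2, and variation between cultures was not measured. No paired analysis was possible because each group holds 1 library, and for the same reason no library could be left out.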

Other observations

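Genes tied to ribosome stress and to p53 were compared as a further list of 18. Cdkn1a, which halts the cell cycle, had 90.6 FPKM with harmine plus LPS, 64.7 FPKM with LPS and 30.8 FPKM in control. Mdm2, the ligase that Rpl5 and Rpl11 can block, had 20.2 FPKM with harmine plus LPS, 18.6 with LPS and 12.4 in control, while Trp53, which encodes p53, had 47.3 FPKM with harmine plus LPS, 44.3 with LPS and 70.3 in control. Sesn1, a p53 target, had 5.17 FPKM with harmine plus LPS, 3.18 with LPS and 12.5 in control. The targets Cdkn1a and Mdm2 were thus lowest in control, and Trp53 and Sesn1 highest there. Map3k20, a kinase that senses colliding ribosomes, had 10.6 FPKM with harmine plus LPS, 7.26 with LPS and 5.31 in control. The list had a median of -0.03 for LPS over control and 0.13 for harmine plus LPS over LPS, against -0.13 and 0.10 over all genes compared; on scaling by the median of ratios its medians were 0.11 and 0.007.

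The 17 genes of RNA polymerase I and its factors, which make ribosomal RNA, had a median of 0.03 for LPS over control and 0.22 for harmine plus LPS over LPS, against -0.13 and 0.10 over all genes compared. By the median of ratios its medians were 0.17 for LPS over control and 0.10 for harmine plus LPS over LPS, so which of the 2 is larger depends on the scaling. Ubtf, an architectural factor of that polymerase, had 26.6 FPKM with harmine plus LPS, 21.3 with LPS and 39.1 in control. Taf1d, a subunit of the selectivity factor, had 53.5 FPKM with harmine plus LPS, 42.8 with LPS and 28.4 in control and Rrn3, the initiation factor, 25.3 FPKM with harmine plus LPS, 25.5 with LPS and 18.6 in control. Importins and chaperones that bring new ribosomal proteins to the nucleus had a median of 0.15 for LPS over control as deposited and 0.30 by the median of ratios (13 genes). Among them Ipo7 had 48.8 FPKM with harmine plus LPS, 45.7 with LPS and 30.8 in control.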
